A study of Homo sapiens with 12 samples.

Results

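NOTCH receptors, the cofactors that carry their signal to DNA and a set of direct targets were followed in HPB-ALL and KOPTK1, 2 established lines of human T-lymphoblastic leukemia (T-ALL). The genes were chosen by name, with earlier results of these data known. They were NOTCH1, NOTCH2, NOTCH3, RBPJ, MAML1, HES1, HES4, DTX1, NRARP and FBXW7. All 10 were found by their Ensembl identifiers among the 58243 genes used from the deposited tables. RNA was taken from cells infected with pLKO.1 lentivirus carrying either an shRNA against SHQ1, an assembly factor of H/ACA ribonucleoproteins, or a control shRNA against GFP, and selected with puromycin at 2 μg/mL; the labels give 48 h of culture with the drug. The RNA was depleted of rRNA before RNA-Seq. Each line has 3 libraries labelled shGFP and 3 labelled shSHQ1, 12 in all, and no label says whether they came from separate infections, so p-values measure only the spread between these libraries, which may be technical.

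The library columns of the tables are headed by bare numbers, 7 to 12 in the HPB-ALL table and 1 to 6 in the KOPTK1 table. The labels tie each table to 1 line with 6 samples, so every library was given to a line, but none to a shRNA group. SHQ1 shRNA was therefore not compared with control shRNA here. The comparison below is between the lines, with the shRNA groups pooled within each, and line, table and any batch cannot be told apart. Libraries are called by their header numbers.

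NOTCH receptors are cut by a metalloprotease and then by γ-secretase after a ligand on a neighbouring cell binds them, and the freed intracellular part enters the nucleus. There it joins the DNA-binding protein RBPJ and a Mastermind coactivator such as MAML1 and switches on targets that include the repressors HES1 and HES4, the ubiquitin ligase DTX1 and the feedback inhibitor NRARP. FBXW7, the substrate receptor of an SCF ubiquitin ligase, marks the intracellular part for degradation. NOTCH signalling directs early progenitors to the T lineage in the thymus, and NOTCH1 is a common oncogene of T-ALL.

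RBPJ is known to bind before the start of some targets, and only that stretch was searched here. The letters GTGGGAA, a core of the RBPJ binding sequence, were searched on both strands in the 250 bases before each start in the RefSeq promoter table (GRCh38.p14). They were present in 5.43% of 35116 promoters. Of the 9 members with an entry in that table, HES1 and HES4 had 1 match each and RBPJ had 2, in 1 of its 5 entries. The share counts promoter entries, of which these members have 16. The letters were chosen after a first look that also searched GTGAGAA, so the member matches test nothing against that share. In HES1 and HES4 the letters began 85 and 77 bases before the RefSeq start, and TTCACAC followed after 16 bases in both. The HES4 gene as counted here reaches to chr1:1000172, beyond its RefSeq start. TTCACAC and part of GTGGGAA of HES4 therefore lie inside the span of the counted gene, and those of HES1 lie before it. TTCACAC was searched only after both windows had been read. GTGGGAA followed within 30 bases by TTCACAC, on either strand, was present in 6 of the 35116 promoters (0.0171%). HES1 and HES4 are 2 of these 6. The pair was chosen from their windows, so their matches were fixed in advance and the share tests nothing about them. The windows of both genes are printed from position -130 to position -46 relative to the start, since these 2 targets differed between the lines in opposite directions. Capitals mark GTGGGAA and TTCACAC.
HES1, chr3:194136018-194136102, plus strand: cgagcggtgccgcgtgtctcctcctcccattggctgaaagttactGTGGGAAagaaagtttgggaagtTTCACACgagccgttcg
HES4, chr1:1000143-1000227, minus strand: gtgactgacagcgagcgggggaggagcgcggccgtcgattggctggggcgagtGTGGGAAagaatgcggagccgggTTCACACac
The matches describe letters in these windows; binding was not measured.

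Total counts were 36792076 to 42842791 in the HPB-ALL libraries and fell in 2 sets in KOPTK1, 33905452 to 36098045 in libraries 1 to 3 and 22884785 to 25938761 in libraries 4 to 6. These sets stood apart in expression too: CD79A, a B-lineage signalling gene, was at 23.2 to 24.4 RPKM in libraries 1 to 3, 5.77 to 7.01 in libraries 4 to 6 and 40.9 to 47.6 in HPB-ALL. The difference of every tested member is therefore also given with either set of KOPTK1 libraries alone, an alternative chosen after the data were seen. The T-lineage marker CD3D was at 295 to 309 RPKM in HPB-ALL and 277 to 311 in KOPTK1, while CD4 was at 1.13 RPKM or less in every library. Other T-lineage markers were less even. CD2 was at 15.3 RPKM or less in HPB-ALL and 36.7 or more in KOPTK1. CD8A was at 0.82 to 1.06 RPKM in HPB-ALL and 4.02 to 6.66 in KOPTK1. Of 10 T-lineage markers 9 were tested as described below: 4 were higher in HPB-ALL, 3 in KOPTK1 and 2 did not pass. The summed level of 4 myeloid markers was 0.646 to 0.936 RPKM in HPB-ALL and 0.833 to 1.55 in KOPTK1. TLX3, the homeobox oncogene for which HPB-ALL is known, was at 0 to 0.037 RPKM in the libraries labelled HPB-ALL, which goes against that label. LMO2, the oncogene for which KOPTK1 is known, was at 0.93 to 2.45 RPKM in libraries labelled KOPTK1 and 0.08 to 0.27 in those labelled HPB-ALL. These levels are low, with 85 to 138 counts in KOPTK1, and LMO2 was not tested. TAL1, another T-ALL oncogene, was at 40.1 to 46.3 RPKM in libraries labelled HPB-ALL and 12.2 to 26.1 in those labelled KOPTK1. HPB-ALL and KOPTK1 below mean the libraries so labelled.

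Of the 9 members that reached a mean of 1 RPKM over the 12 libraries, 7 differed between the lines at an adjusted p under 0.05 in edgeR's quasi-likelihood test. HES4 and DTX1 were higher in HPB-ALL, and NOTCH1, RBPJ, MAML1, HES1 and FBXW7 were higher in KOPTK1. NOTCH2 and NOTCH3 did not pass, and NRARP was below the minimum and was not tested. Levels are in RPKM, counts per kilobase of exon scaled to the library's total and its TMM factor, and log2 fold changes are HPB-ALL over KOPTK1, with their standard error (SE).

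The lines differed across the transcriptome, and the member counts have to be read against that. Of 23090 genes tested, 65.3% passed in either direction, 37.6% with HPB-ALL higher and 27.7% with KOPTK1 higher. The libraries of the lines did not overlap for 5 of the 9 tested members and for 46.6% of all tested genes. None of the members differed by 2-fold or more with an adjusted p under 0.05, against 10.9% of tested genes. The median size of the log2 fold change was 0.42 over the 9 members and 0.32 over all tested genes.

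**Figure D1:**
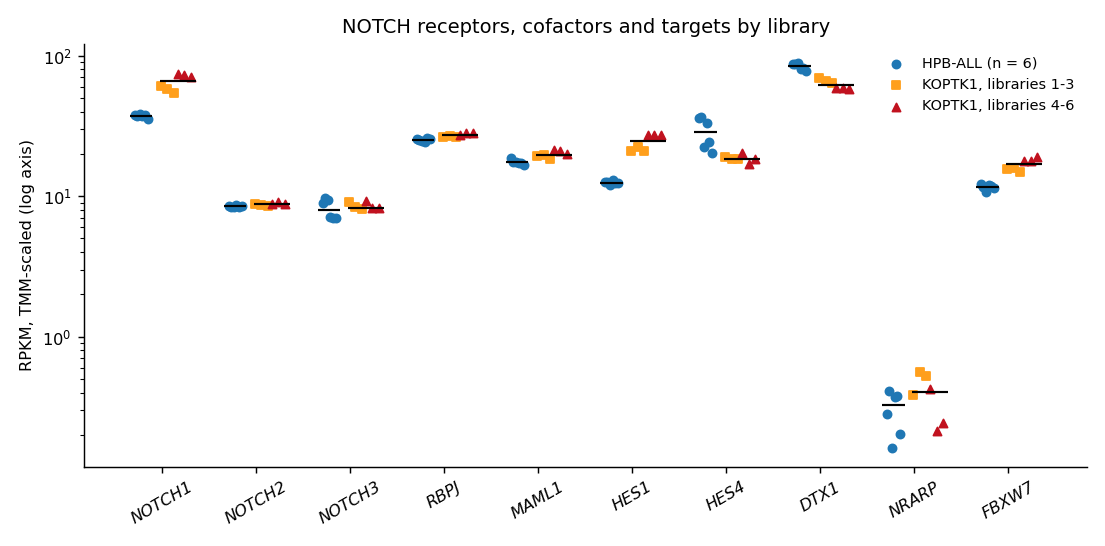
Level of each member in each of the 12 libraries, in TMM-scaled RPKM on a log axis. Circles are HPB-ALL, squares KOPTK1 libraries 1 to 3, triangles KOPTK1 libraries 4 to 6, and black lines the median of the 6 libraries of a line. NOTCH1 and DTX1 are the highest by median in both lines and NRARP the lowest.

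Among the receptors, NOTCH1 (ENSG00000148400, chr9:136494444-136545862, minus strand, GRCh38), the receptor most often mutated in T-ALL, was the most abundant in both lines. It was at 35.4, 37.4 and 38.5 RPKM (lowest, median and highest of 6) in HPB-ALL and 53.9, 65.5 and 74.5 RPKM in KOPTK1. Every KOPTK1 library was above every HPB-ALL library. In bulk RNA of this kind, more cells with a transcript and more transcript per cell cannot be told apart. The log2 fold change was -0.80 (SE 0.07, adjusted p = 8e-07), a level 1.74-fold higher in KOPTK1. It was -0.97 with KOPTK1 libraries 4 to 6 alone and -0.67 with libraries 1 to 3 alone.

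Within KOPTK1, NOTCH1 was at 60.8, 58.0 and 53.9 RPKM in libraries 1, 2 and 3 and at 74.5, 72.5 and 70.3 RPKM in libraries 4, 5 and 6. The lower set lay between the higher set and HPB-ALL. Its highest library was 1.38 times its lowest, and 20.9% of the 8388 genes at 10 RPKM or more in KOPTK1 had a wider range. In HPB-ALL that ratio was 1.08, below the median of 1.11 over 8528 such genes.

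NOTCH2 (ENSG00000134250, chr1:119911553-120069626, minus strand) and NOTCH3 (ENSG00000074181, chr19:15159038-15200981, minus strand), receptors of the same family, were at nearly the same level as each other in each line. NOTCH2 was at 8.32, 8.46 and 8.60 RPKM in HPB-ALL and 8.57, 8.77 and 9.01 RPKM in KOPTK1. The lines overlapped, and the log2 fold change was -0.05 (SE 0.02, 95% interval -0.096 to -0.003, adjusted p = 0.080). NOTCH2 passed in 9 of the alternatives, all with KOPTK1 higher, among them scaling to total counts alone (-0.11, adjusted p = 0.00084) and either set of KOPTK1 libraries (-0.08, adjusted p = 0.018 for libraries 4 to 6 and -0.07, adjusted p = 0.029 for libraries 1 to 3). Scaling to total counts alone also moved the median of all tested genes towards KOPTK1, as given for RBPJ below. NOTCH2 has near-identical NOTCH2NL copies in the genome. Its counts were whole numbers in all 12 libraries, which shows no read divided between genes, and whether reads that map to several places were dropped is not given in the sources used here.

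NOTCH3 was at 6.94, 8.02 and 9.69 RPKM in HPB-ALL and 8.11, 8.28 and 9.22 RPKM in KOPTK1. Its log2 fold change was -0.06 (SE 0.09, approximate 95% interval -0.23 to 0.11, adjusted p = 0.57). The HPB-ALL libraries reached both below and above those of KOPTK1. With KOPTK1 libraries 4 to 6 or 1 to 3 alone the value was -0.07 or -0.10 and did not pass. NOTCH4, the fourth receptor, was at 0.40 to 0.59 RPKM in HPB-ALL and 0.43 to 0.68 in KOPTK1 and was below the minimum for testing.

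Both cofactors were somewhat higher in KOPTK1. RBPJ (ENSG00000168214, chr4:26319710-26435131, plus strand), which holds the complex on DNA, was at 24.4, 25.3 and 25.9 RPKM in HPB-ALL and 26.2, 27.0 and 28.1 RPKM in KOPTK1. No libraries of the lines overlapped, and the log2 fold change was -0.10 (SE 0.03, adjusted p = 0.0045), a difference of 1.07-fold. It was -0.15 with KOPTK1 libraries 4 to 6 alone and -0.11 with libraries 1 to 3 alone. Scaling to total counts alone moved it to -0.17, where the same scaling moved the median of all tested genes by -0.064. RBPJ has processed pseudogenes, and its counts too were whole in all 12 libraries.

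MAML1 (ENSG00000161021, chr5:179732850-179777286, plus strand), the coactivator that binds the NOTCH-RBPJ surface, was at 16.6, 17.5 and 18.8 RPKM in HPB-ALL and 18.3, 19.8 and 21.2 RPKM in KOPTK1. Only the highest HPB-ALL library, library 7, reached above the lowest of KOPTK1, library 3. The log2 fold change was -0.18 (SE 0.04, adjusted p = 0.0011), with -0.25 for libraries 4 to 6 alone and -0.17 for libraries 1 to 3 alone.

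The direct targets did not share a direction. HES1 (ENSG00000114315, chr3:194136145-194138732, plus strand), a helix-loop-helix repressor, was at 11.9, 12.5 and 13.1 RPKM in HPB-ALL and 21.0, 24.7 and 27.4 RPKM in KOPTK1. All KOPTK1 libraries were above all HPB-ALL libraries, and the log2 fold change was -0.96 (SE 0.08, adjusted p = 3.1e-07), or 1.94-fold. It was -1.02 under scaling to total counts alone and -1.01 in DESeq2, both just past 2-fold. With KOPTK1 libraries 4 to 6 alone it was -1.13, past 2-fold, and with libraries 1 to 3 alone -0.82. Library by library, HES1 in KOPTK1 was at 21.0, 22.3 and 21.1 RPKM in libraries 1 to 3 and 27.4, 27.1 and 27.2 RPKM in libraries 4 to 6.

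HES4 (ENSG00000188290, chr1:998962-1000172, minus strand), a repressor of the same family, was at 20.2, 28.7 and 36.7 RPKM in HPB-ALL and 16.9, 18.4 and 20.2 RPKM in KOPTK1. The log2 fold change was 0.63 (SE 0.14, adjusted p = 0.0011), higher in HPB-ALL by 1.55-fold. The ranges touched only at HPB-ALL library 12 (20.15) and KOPTK1 library 4 (20.16). The value was 0.63 with KOPTK1 libraries 4 to 6 and 0.58 with libraries 1 to 3.

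HES4 was the member with the widest range in HPB-ALL among those at 10 RPKM or more. Libraries 7, 8 and 10 were at 35.8, 36.7 and 33.1 RPKM, and libraries 9, 11 and 12 at 22.4, 24.2 and 20.2 RPKM. The highest was 1.82 times the lowest, a wider range than in all but 0.997% of the 8528 genes at that level, with 869 to 1568 counts behind each value.

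DTX1 (ENSG00000135144, chr12:113057690-113098028, plus strand), a Deltex ubiquitin ligase that acts on NOTCH, was the highest member in HPB-ALL. It was at 77.4, 84.3 and 88.4 RPKM there and 57.7, 61.4 and 69.9 RPKM in KOPTK1. The lines did not overlap, and the log2 fold change was 0.42 (SE 0.05, adjusted p = 9.5e-06), or 1.34-fold higher in HPB-ALL. It was 0.50 with KOPTK1 libraries 4 to 6 alone and 0.29 with libraries 1 to 3 alone.

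NRARP (ENSG00000198435, chr9:137300482-137302251, minus strand), the ankyrin-repeat inhibitor of the NOTCH complex, was the lowest member in both lines. It had 12 to 30 counts a library in HPB-ALL (0.16, 0.33 and 0.41 RPKM) and 10 to 35 in KOPTK1 (0.21, 0.41 and 0.56 RPKM). The lines overlapped. Without a minimum level its log2 fold change was -0.40 (SE 0.28, adjusted p = 0.27), which did not pass.

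FBXW7 (ENSG00000109670, chr4:152321259-152536101, minus strand), which limits the life of the active receptor, was at 10.8, 11.7 and 12.2 RPKM in HPB-ALL and 14.9, 16.9 and 19.0 RPKM in KOPTK1. The lines did not overlap, and the log2 fold change was -0.54 (SE 0.06, adjusted p = 3.6e-06), or 1.45-fold higher in KOPTK1. It was -0.66 with libraries 4 to 6 alone and -0.46 with libraries 1 to 3 alone. FBXW7 shares exon bases with the antisense gene FBXW7-AS1, which had a mean of about 100 counts a library in each line (100.5 and 100.1) against 2859 and 3121 for FBXW7; whether the counting used strand is not given in the sources used here.

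**Figure D2:**
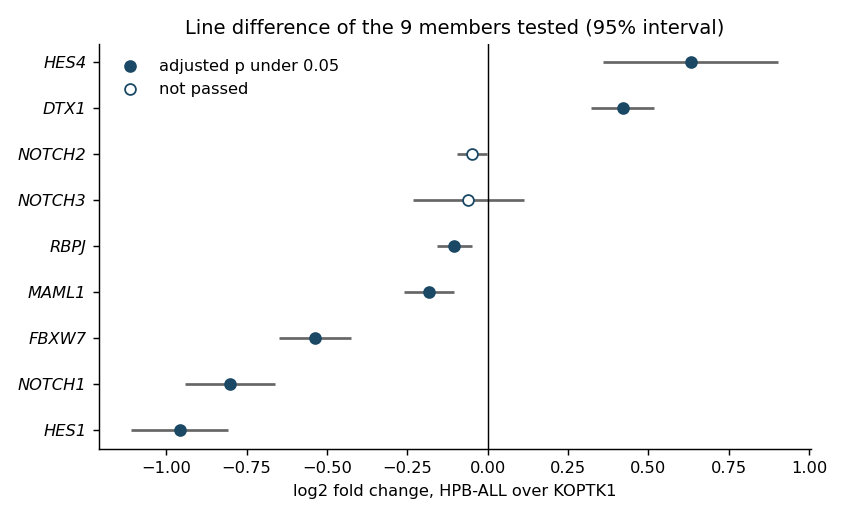
Log2 fold change of the 9 tested members, HPB-ALL over KOPTK1, with 95% intervals from the standard error (6 libraries a line). Filled points passed an adjusted p under 0.05, and open points, NOTCH2 and NOTCH3, did not.

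The sets of KOPTK1 libraries bear on most of these values. In 7 of the 9 tested members libraries 1 to 3 did not overlap libraries 4 to 6, against 49.4% of tested genes. For NOTCH1, RBPJ, HES1, DTX1 and FBXW7, libraries 1 to 3 lay wholly between libraries 4 to 6 and HPB-ALL, and so did 35.0% of tested genes and 78.4% of the 2524 genes called at 2-fold or more. DTX1, for example, was at 57.7 to 59.3 RPKM in libraries 4 to 6, 63.5 to 69.9 in libraries 1 to 3 and 77.4 to 88.4 in HPB-ALL. TAL1, a T-ALL oncogene that is no NOTCH gene, had the same order, at 12.2 to 12.5, 23.5 to 26.1 and 40.1 to 46.3 RPKM. What set the libraries of KOPTK1 apart was not tested.

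**Figure D3:**
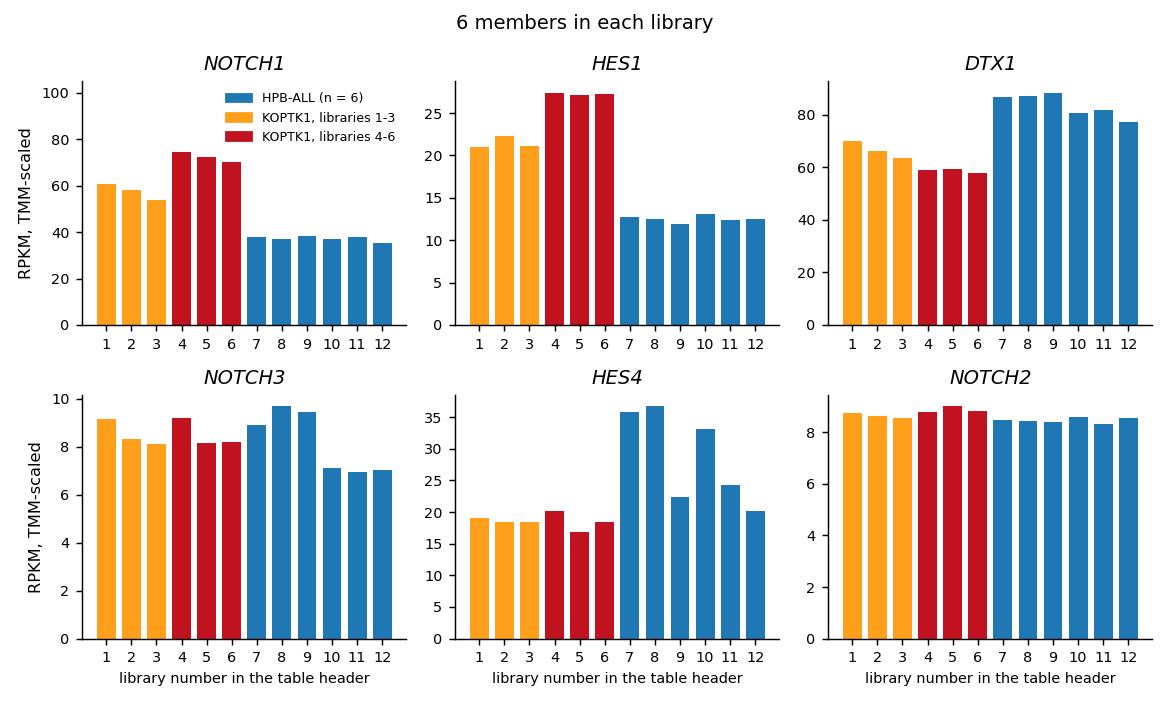
Level of 6 members in each library, in TMM-scaled RPKM, by library number (KOPTK1 1 to 6, HPB-ALL 7 to 12). NOTCH1 and HES1 are highest in KOPTK1 libraries 4 to 6 and DTX1 lowest there; NOTCH3 and HES4 vary most within HPB-ALL, and NOTCH2 is nearly level.

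Ordered by median level per length, the members ran in HPB-ALL from DTX1 through NOTCH1, HES4, RBPJ, MAML1, HES1, FBXW7, NOTCH2 and NOTCH3 to NRARP. The neighbours NOTCH1 and HES4, HES4 and RBPJ, HES1 and FBXW7, and NOTCH2 and NOTCH3 overlapped in their ranges. In KOPTK1 the order was NOTCH1, DTX1, RBPJ, HES1, MAML1, HES4, FBXW7, NOTCH2, NOTCH3 and NRARP, and only DTX1 with RBPJ, FBXW7 with NOTCH2 and NOTCH3 with NRARP were free of overlap. NOTCH1 was above DTX1 in 3 of the 6 KOPTK1 libraries and in none of HPB-ALL.

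The genes whose log2 level followed NOTCH1 most closely over the 6 libraries of a line were ELK1, BTBD2, TBC1D10A, POLD2 and ZSCAN25 in HPB-ALL (Pearson's r of 0.991 to 0.981) and STAG3L5P-PVRIG2P-PILRB, PLEKHM1, TRBJ2-6, STMN3 and MYO7B in KOPTK1 (0.998 to 0.997). No gene is in both groups. With 6 points each, an r above 0.9 was reached by 1.66% of 8247 genes in HPB-ALL and by 15.9% of 8087 in KOPTK1, where the points share the split between libraries 1 to 3 and 4 to 6. In KOPTK1 the r with NOTCH1 was 0.940 for HES1, 0.927 for MAML1, 0.919 for FBXW7, 0.781 for RBPJ, -0.732 for DTX1 and 0.012 for HES4. In HPB-ALL it was -0.325 for HES1, 0.670 for MAML1, -0.187 for FBXW7, -0.096 for RBPJ, 0.788 for DTX1 and 0.236 for HES4.

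Outside the members, 57 further genes of the pathway were counted, from the ligands to other targets. Their lists too were chosen with earlier results of these data known. Of the 46 at 1 RPKM or more, 22 were higher in HPB-ALL, 20 were higher in KOPTK1 and 4 did not pass, beside 37.6% and 27.7% of all tested genes higher in HPB-ALL and in KOPTK1. The median size of their log2 fold change was 0.26, against 0.32 over all tested genes, and the counts of the lists below are likewise to be read against the 65.3% of tested genes that passed. Ligands were scarce: JAG1 alone of 5 reached the minimum, at 1.17 to 1.67 RPKM in HPB-ALL and 1.17 to 1.40 in KOPTK1 (log2 fold change 0.14, SE 0.09, adjusted p = 0.19).

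Of 14 genes of receptor maturation and cleavage, 12 were tested, and 7 were higher in HPB-ALL and 4 in KOPTK1. MFNG, a fringe enzyme that adds sugars to the receptor, was at 25.8 to 32.7 RPKM in HPB-ALL and 14.1 to 20.5 in KOPTK1 (0.75, SE 0.10, adjusted p = 1.8e-05), and PSENEN, a γ-secretase subunit, was also higher in HPB-ALL (0.38). The protease ADAM10, at 32.4 to 34.9 RPKM in HPB-ALL and 39.7 to 49.5 in KOPTK1, had the lowest value of the list (-0.43, SE 0.05, adjusted p = 1.4e-05), followed by RFNG, another fringe enzyme (-0.24).

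All 5 tested coactivators passed, 2 higher in HPB-ALL and 3 in KOPTK1. MAML3, a second Mastermind protein, was at 0.18 to 0.42 RPKM in HPB-ALL and 1.6 to 3.1 in KOPTK1, with a log2 fold change of -2.91 (SE 0.22, adjusted p = 2.4e-07). The acetyltransferase CREBBP was lower in HPB-ALL (-0.42) and its relative EP300 higher (0.27). Among 6 corepressors of RBPJ, 2 were higher in HPB-ALL, 3 in KOPTK1 and 1 did not pass; HDAC1, a histone deacetylase, had the highest value (0.29).

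All 13 genes of receptor turnover and trafficking were tested, 5 higher in HPB-ALL, 7 in KOPTK1 and 1 that did not pass. The widest difference was in DTX3, a Deltex relative of DTX1, at 0.007 to 0.45 RPKM in HPB-ALL (1 to 61.5 counts) and 6.47 to 12.4 in KOPTK1, a log2 fold change of -5.27 (SE 0.48, adjusted p = 9.7e-07). DTX4, a further relative, had the highest value of the list, at 1.76 to 2.19 RPKM in HPB-ALL and 0.35 to 1.28 in KOPTK1 (1.24, SE 0.30, adjusted p = 0.0020).

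Of 12 other targets known in T-ALL, 9 were tested and all passed, where 65.3% of all tested genes did, with 6 higher in HPB-ALL and 3 in KOPTK1. IL7R, the receptor for interleukin 7, was at 1.39 to 2.04 RPKM in HPB-ALL and 0.32 to 1.16 in KOPTK1 (1.12, SE 0.24, adjusted p = 0.00097), and HEYL, a relative of the HES repressors, was higher in HPB-ALL by 1.09. PTCRA, the pre-T-cell receptor alpha chain, was at 1.86 to 3.10 RPKM in HPB-ALL and 3.76 to 4.51 in KOPTK1 (-0.71, SE 0.11, adjusted p = 8.8e-05), and MYC had a value of -0.20. SHQ1, the target of the shRNA, was at 47.0, 61.3 and 73.7 RPKM in HPB-ALL and 38.6, 42.4 and 44.9 RPKM in KOPTK1 (0.52, SE 0.12, adjusted p = 0.0015). Since knockdown and control libraries are pooled in each line, the SHQ1 value mixes the level of the line with any effect of the shRNA. SHQ1 is counted among the 9 tested targets above.

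**Figure D4:**
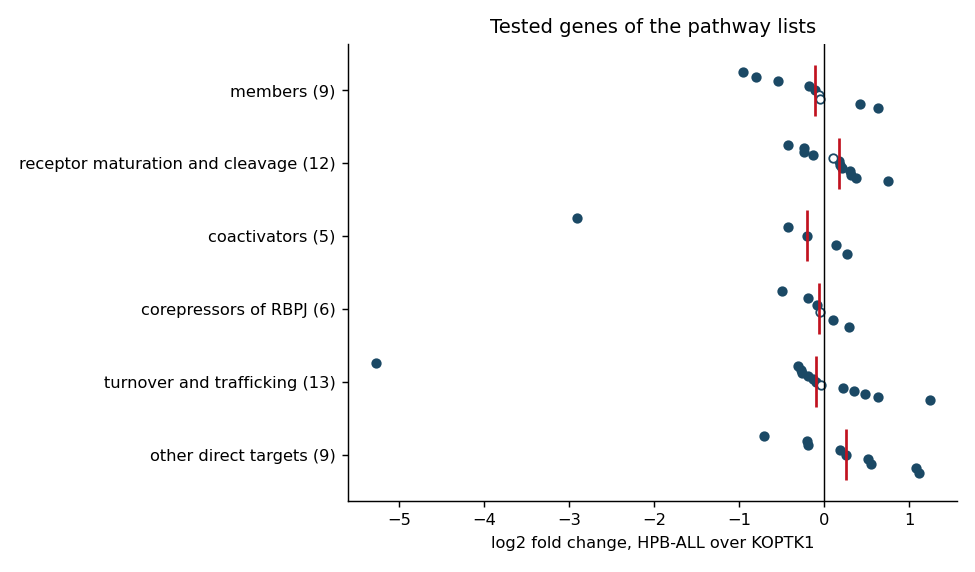
Log2 fold change (HPB-ALL over KOPTK1) of every tested gene in the members and in 5 pathway lists, with the number of tested genes in brackets. Filled points passed an adjusted p under 0.05, open points did not, and red lines are list medians; MAML3 (-2.91) and DTX3 (-5.27) lie far to the left.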

How the data were processed

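RNA-Seq was made from 12 libraries of HPB-ALL and KOPTK1 cells. The authors deposited 1 table per line with 58288 genes, each with exon length in bases (another value) and 6 library columns. Although named RPKM, the deposited columns hold estimated counts, and 16.3% of the values are fractions. How reads were divided to give fractions is not stated in the sources used here. They were rounded for testing. Per the labels, the submitters' processing notes name Trimmomatic 0.36, STAR 2.5.4b, Picard 2.18.7, featureCounts 1.6.2 and edgeR 3.22.3, and hg38; the paper's methods give another mapping for splicing. The tables also hold the authors' own fold changes, average CPM, F statistics, p-values and FDR, which were not used.

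Columns carry only numbers. They were assigned to a line because the sample descriptions name that line's table, not because the header names the line; no sample or shRNA group was assigned, and the planned shRNA tests were not run. The 45 duplicate rows of the Y pseudoautosomal region were left out, and symbols matched 95.9% of identifiers.

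Both tables were fitted together with edgeR 4.0.16 (R 4.3.3) by the quasi-likelihood test, with TMM factors, a minimum mean of 1 RPKM over all libraries, and Benjamini-Hochberg adjustment over 23090 genes. Threshold: adjusted p under 0.05. The SE was the size of the log2 fold change divided by the square root of F. Approximate 95% intervals were 1.96 SE either side, narrower than intervals from the F test. No 2 libraries agreed within sampling noise (chi-square per degree of freedom 1.75 or more). Alternatives were DESeq2 1.42.0, total counts alone, no minimum, 10 RPKM, a 2-fold minimum and leaving out each library. The edgeR step was tested on simulated data.

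All 10 members are named, and of each pathway list the 2 genes with the highest and the 2 with the lowest log2 fold change at most. The members and lists were chosen with earlier results of these data known. Motif letters were chosen after a first look that also searched GTGAGAA. Promoters came from RefSeq (GRCh38.p14), whose gene positions overlapped those of the tables for all 10 members; DTX1 was not matched to a promoter.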

Additional observations from a re-analysis of the deposited data

How the results depend on the processing

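Between 7 and 8 members passed under every alternative except a minimum change of 2-fold, under which the count was 0, since no member had a log2 fold change of that size in edgeR's test with TMM factors and all 12 libraries; HES1 was past it with total counts alone (-1.02), in DESeq2 (-1.01) and with KOPTK1 libraries 4 to 6 alone (-1.13). The count over all genes was 15089, with 6623 at a mean of 10 RPKM or more, where 8504 genes were tested, 2524 at 2-fold and 19484 of 48405 with no minimum. DESeq2 gave 14943. Leaving out 1 library at a time gave 14265 to 15319. Single genes gave 178 values under the alternatives. In 169 the sign and the call stayed as reported, none turned in sign and none lost its call. The other 9 were NOTCH2, which passed with total counts alone, DESeq2 (-0.10, adjusted p = 9.3e-06), either set of KOPTK1 libraries, and without HPB-ALL library 7, 9, 10 or 12 or KOPTK1 library 6 (-0.08 to -0.07). The cause was not tested. Of 120 within-line ranges with 1 library left out, 9 moved by more than 1 SD.

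No paired analysis was possible because the library columns carry no replicate number of a label. The alternatives planned for the shRNA comparison, and those for RPKM values, were not run for the same reason or because the columns hold counts. NRARP rests on the fewest counts of the members, 10 to 35 a library.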

Other observations

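NOTCH3 and SHQ1 each fell in 2 separate sets among the HPB-ALL libraries, and the same libraries formed the sets. NOTCH3 was at 8.93, 9.69 and 9.43 RPKM in libraries 7, 8 and 9 and at 7.11, 6.94 and 7.02 in libraries 10, 11 and 12. SHQ1 was at 72.9, 73.7 and 72.7 RPKM in libraries 7, 8 and 9 and at 48.3, 47.0 and 49.8 in libraries 10, 11 and 12. DTX1 had the same split, at 86.7, 87.1 and 88.4 RPKM against 80.8, 81.9 and 77.4, and so did MAML1, at 18.8, 17.6 and 17.6 RPKM against 17.4, 17.4 and 16.6. NOTCH3, DTX1 and MAML1 were the 3 of 9 tested members with this split, and 20.6% of all tested genes had libraries 7 to 9 apart from libraries 10 to 12 in either direction. In KOPTK1, SHQ1 was at 43.8 to 44.9 RPKM in libraries 1 to 3 and 38.6 to 41.0 in libraries 4 to 6. No label ties these libraries to a shRNA, and the split was not tested.

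DTX3 was at 0.066, 0.050 and 0.007 RPKM in HPB-ALL libraries 7, 8 and 9 and at 0.455, 0.403 and 0.439 in libraries 10, 11 and 12. In KOPTK1 it was at 6.47, 6.64 and 7.0 RPKM in libraries 1, 2 and 3 and at 12.4, 11.3 and 10.8 in libraries 4, 5 and 6. MAML3 had the same split in KOPTK1, at 1.6, 1.69 and 1.7 RPKM against 3.10, 2.69 and 2.93, and in HPB-ALL it was at 0.178, 0.281 and 0.263 in libraries 7, 8 and 9 and at 0.358, 0.415 and 0.320 in libraries 10, 11 and 12.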
